A study of Mus musculus with 18 samples.

Results

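D-type cyclins, the kinases they activate and the inhibitors of those kinases were followed in T cells with and without G9a, the histone H3 lysine 9 methyltransferase encoded by Ehmt2. The set holds 10 genes of the 23234 gene symbols in the deposited RNA table, taken by symbol: Ccnd1, Ccnd2, Ccnd3, Cdk4, Cdk6, Cdkn1a, Cdkn1b, Cdkn2a, Cdkn2c and Cdkn2d. All cells came from mice of strain C57BL/6, and their age is not given in the sources used here. RNA was extracted from T cells taken from lymph nodes and spleen after 4 weeks of proliferation in a host with few lymphocytes. The 3 RNA groups were G9a knockout CD4+CD8+ cells (KO DP, n = 4), G9a knockout CD4-CD8+ cells (KO SP, n = 2) and G9a wild-type CD4-CD8+ cells (WT SP, n = 4). H3K9me3, a histone mark of silent chromatin, was mapped in 2 libraries of Ehmt2+/+ and 2 of Ehmt2-/- CD8+ T cells from spleen, grown in culture with antibodies to CD3 and CD28. The labels name neither the part of Ehmt2 that was deleted nor how it was deleted, and do not state that each sample is an animal of its own. The p-values therefore cover the spread between libraries of a group, and that spread may be technical.

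In resting lymphocytes the retinoblastoma proteins hold E2F transcription factors inactive. When a cell receives mitogens or antigen, D-type cyclins accumulate, bind Cdk4 or Cdk6, and the kinases phosphorylate the retinoblastoma proteins, which releases E2F and opens S phase. The Ink4 inhibitors (Cdkn2a, Cdkn2c and Cdkn2d here) bind the kinases themselves, whereas Cdkn1a (p21) and Cdkn1b (p27) bind cyclin-kinase complexes and also act on Cdk2. In T cells Ccnd2 and Ccnd3 are the D cyclins in use, and Ccnd3 with Cdk6 is needed for the expansion of thymocytes.

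The RNA values are FPKM, transcript levels per length and depth, deposited by the authors. The columns summed to 183632 in KO DP replicate 4, to 292872 in KO DP replicate 3 and to 441903 to 504013 in the other 8 libraries. Levels below are therefore scaled FPKM, divided by a size factor per library (0.468 and 0.744 in those 2 libraries, 1.07 to 1.22 in the others), and values as deposited stand beside them where a call changes. Read depth is unknown. The numbers in the sample titles fall into 2 ranges, 34 to 37 (KO DP and WT SP replicates 1 and 2) and 738 to 741 (the other 6 libraries), and the labels do not say what the numbers mean. Cd4 was at 105.7 to 152 scaled FPKM in KO DP and at most 0.464 in the other groups. Cd8a was at 149.8 to 224 in KO DP, 265 to 278 in KO SP and 223 to 299 in WT SP. Cd3e was at 224 to 481, 349 to 400 and 408 to 810 in the same groups. Ehmt2 was at 15.6 to 20.2 in KO DP, 10.3 to 11.8 in KO SP and 17.0 to 38.2 in WT SP, which did not pass the test in either knockout group (limma, adjusted p 0.243 and 0.305). A transcript that lacks only part of the gene can still be counted, but this was not tested here. These values do not show how far Ehmt2 was deleted in the cells. Transcripts of the sex chromosomes went with genotype: Xist was at 1.88 to 4.58 FPKM as deposited in the 6 knockout libraries and 0.0134 to 0.0338 in the 4 wild-type ones, and Ddx3y at 0.0626 to 0.543 against 21.5 to 27.9. A difference between the genotypes and a difference between the sexes cannot be told apart in these data.

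The 10 genes ranged from a listed 0 to 325.5 scaled FPKM, and the 5 highest had the same order of means in the 3 groups. That order rests on summing the 2 lines that the table holds for Cdkn2d. As deposited, each line alone was at 39.4 to 64.9 FPKM in WT SP, below Ccnd2 at 74.9 to 86.2. Ccnd3 was the highest member in every library, with a mean of 218 ± 32.1 scaled FPKM (SD, n = 4) in KO DP, 269.7 ± 15.5 (n = 2) for KO SP and 258 ± 69.0 (n = 4) in WT SP. Cdk4 came next (102.5 ± 11.2, 158 ± 2.09 and 135 ± 18.3), followed by Cdkn2d, the p19Ink4d inhibitor (78.6 ± 20.8, 126 ± 20.4 and 96.9 ± 17.5). In KO DP and WT SP the ranges of Cdk4 and Cdkn2d overlapped between libraries, but within every library Cdk4 was above Cdkn2d. Ccnd2 and then Cdkn2c, the p18Ink4c inhibitor, followed in all 3 groups, and their libraries overlapped in KO DP alone. The ranges of Ccnd2 and the summed Cdkn2d also overlapped in WT SP, though Cdkn2d was higher within each of those libraries. Cdkn1a, Cdkn1b and Cdk6 formed the next level, at group means of 2.38 to 9.23. Neighbours overlapped in KO DP and WT SP, as did Cdk6 and Cdkn1a in KO SP. The order of means differed: Cdkn1a had the highest mean of these 3 in KO DP and the lowest in KO SP and WT SP. This order did not hold in every library: in KO DP replicate 1 Cdkn1b was at 12.3 and Cdkn1a at 10.6.

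Ccnd1 and Cdkn2a lay at the bottom and were not tested, because their mean over the 10 libraries was below the filter of 0.5 scaled FPKM. Ccnd1, the D cyclin of many non-lymphoid cells, was at 0.250, 0.310, 0.385 and 0.694 in KO DP, at 0.253 and 0.154 in KO SP, and reached 0.301, 0.637, 0.200 and 0.035 in WT SP. Cdkn2a, which encodes both p16Ink4a and p19Arf so that 1 FPKM value covers both products, was at 0.218, 1.67, 0.521 and 0.573 in KO DP, at 0.266 and 0.204 in KO SP, and among WT SP at 0.239, 0.786, 0.086 and, in replicate 4, a listed 0. For both genes the groups overlapped. The other 8 members entered every test.

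**Figure D1:**
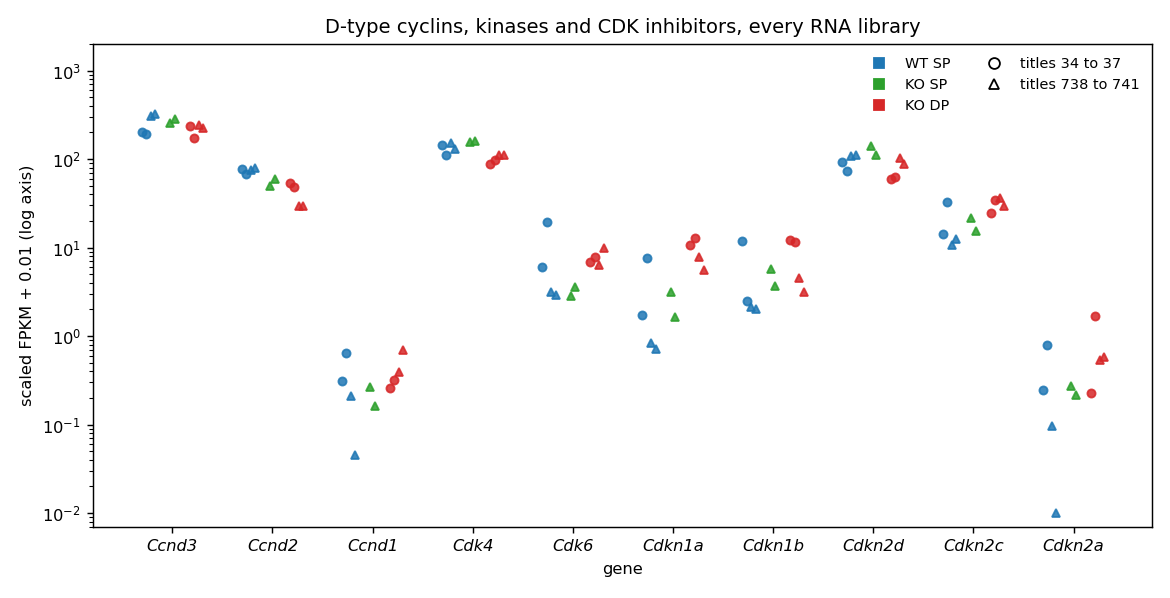
Scaled FPKM of the 10 genes in each of the 10 RNA libraries, on a log axis after adding 0.01; circles are libraries with title numbers 34 to 37 and triangles those with 738 to 741, and within a gene the points run from WT SP (blue) over KO SP (green) to KO DP (red). Ccnd3 is highest throughout, Ccnd2 is lower in every KO DP library than in every WT SP library, and WT SP replicate 2 lies among the KO DP libraries for Cdkn1a and Cdkn2c.

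Between KO DP and WT SP, Ccnd2 fell and Cdkn1a rose, and the other 6 tested members did not pass. Ccnd2 had a mean of 40.3 ± 13.0 scaled FPKM (SD, n = 4) in KO DP and 74.5 ± 5.09 (n = 4) in WT SP. Cdkn1a had a mean of 9.23 ± 3.25 in KO DP and 2.74 ± 3.32 in WT SP. The 2 calls of 8 compare with 17.8% of all 11288 genes tested that passed at an adjusted p under 0.05 (limma, Benjamini-Hochberg), 9.15% higher and 8.65% lower in KO DP. The median log2 difference of the 8 members was 0.05, against -0.03 over all genes. As deposited, none of the 8 passed, where 7.89% of 11162 genes did, with a median over all genes of -0.38. KO DP differs from WT SP in genotype and in CD4 phenotype together, so this comparison cannot tell the 2 apart. In bulk samples such as these, fewer cells of a type and less RNA per cell cannot be told apart either.

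Ccnd2, the D cyclin that antigen receptor and cytokine signals induce in T cells, was at 54.4, 48.4, 29.4 and 29.2 scaled FPKM in KO DP, at 49.7 and 59.95 in KO SP, and reached 77.5, 67.2, 75.0 and 78.3 in WT SP. All 4 KO DP libraries lay below all 4 WT SP libraries, as did both KO SP libraries, and the 2 lowest were KO DP replicates 3 and 4. The log2 difference of KO DP from WT SP was -0.92 ± 0.20 (SE; limma, adjusted p = 0.0154). The call held in all 10 fits that left out 1 library (adjusted p 0.00708 to 0.0431). As deposited the difference was -1.31 ± 0.43 with an adjusted p of 0.0815, and without KO DP replicates 3 and 4, the 2 libraries with the low FPKM sums, it was -0.53 with an adjusted p of 0.0540.

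Ccnd3, the D cyclin on which thymocyte and germinal centre expansion depends, was at 235.7, 171.5, 242.3 and 223.2 in KO DP and 204.8, 193.1, 309.8 and 325.5 in WT SP. The groups overlapped, and the higher WT SP values were those of replicates 3 and 4. The log2 difference was -0.22 ± 0.20 (limma, adjusted p = 0.477).

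Cdk4 and Cdk6 are near-equivalent catalytic partners of the D cyclins. Cdk4 was at 88.8, 97.9, 112.7 and 110.8 in KO DP and 145.7, 111.4, 153.0 and 131.0 in WT SP. Only WT SP replicate 2 reached into the KO DP range. The log2 difference of -0.39 ± 0.13 did not pass (limma, adjusted p = 0.0605), and without WT SP replicate 2 it was -0.49 with an adjusted p of 0.0177. Cdk6 was at 6.87, 7.83, 6.41 and 9.77 in KO DP and 6.03, 19.6, 3.11 and 2.93 in WT SP, where replicate 2 had the highest value of all libraries. The log2 difference was 0.31 ± 0.46 (limma, adjusted p = 0.674), and without that library it was 0.83 with an adjusted p of 0.0327.

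Cdkn1a, the p21 inhibitor and a classical target of p53, was at 10.6, 13.0, 7.74 and 5.58 in KO DP and 1.74, 7.67, 0.825 and 0.704 in WT SP. WT SP replicate 2 lay inside the KO DP range, and the other 3 WT SP libraries lay below it. The log2 difference was 1.75 ± 0.49 (limma, adjusted p = 0.0365). This call was less steady than that of Ccnd2: it was lost in 8 of the 10 fits that left out 1 library (adjusted p 0.0526 to 0.101) and kept without KO DP replicate 4 (0.0478) and without WT SP replicate 2, where the difference was 2.26 with an adjusted p of 0.00122. As deposited it was 1.45 ± 0.58 with an adjusted p of 0.137. Cdkn1b, the p27 inhibitor that holds resting T cells out of the cycle, was at 12.3, 11.6, 4.52 and 3.16 in KO DP and 11.8, 2.48, 2.10 and 2.04 in WT SP. WT SP replicate 1 stood with the 2 highest KO DP libraries, and the log2 difference of 0.80 ± 0.53 did not pass (limma, adjusted p = 0.331).

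The stretches before the start sites of Cdk4 and Cdkn1a are shown because each holds the letters of a factor whose genes are described further on. They are the 250 bases before the start site on the plus strand, from RefSeq on GRCm38.p6, at chr10:127063285-127063534 for Cdk4 and chr17:29090729-29090978 for Cdkn1a.
Cdk4: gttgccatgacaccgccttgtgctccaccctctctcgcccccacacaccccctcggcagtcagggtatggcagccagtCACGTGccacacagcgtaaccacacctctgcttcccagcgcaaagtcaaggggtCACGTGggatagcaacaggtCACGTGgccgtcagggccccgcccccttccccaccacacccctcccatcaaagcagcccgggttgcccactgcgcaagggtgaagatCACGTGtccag
Cdkn1a: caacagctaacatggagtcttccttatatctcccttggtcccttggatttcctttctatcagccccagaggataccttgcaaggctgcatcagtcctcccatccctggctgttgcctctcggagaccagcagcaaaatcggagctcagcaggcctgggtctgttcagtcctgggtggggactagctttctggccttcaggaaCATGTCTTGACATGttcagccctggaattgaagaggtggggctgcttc
Capitals in Cdk4 mark CACGTG, the E box letters that Myc with Max can bind, and in Cdkn1a they mark CATGNNNNNNCATG, the core letters and spacing of a p53 site. Both motifs read the same on either strand and do not overlap each other here. CACGTG starts 172, 118, 98 and 11 bases before the Cdk4 start site. Of 32851 windows of this length, 6.02% held it at least 1 time and 7 windows (0.0213%) at least 4 times. CATGNNNNNNCATG starts 48 bases before the Cdkn1a start site of the window shown, and 161 windows (0.49%) held it. The window of the other annotated Cdkn1a start site (chr17:29093519-29093768) held neither motif. Among the 12 windows found for 8 of the 10 members, the remaining match was a CACGTG 220 bases before a Cdk6 start site. These are letters in a window, with no measurement of binding.

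Among the Ink4 inhibitors, Cdkn2c was at 24.9, 34.3, 36.5 and 29.5 in KO DP and 14.1, 33.1, 10.6 and 12.5 in WT SP. As for Cdkn1a, WT SP replicate 2 was the one wild-type library inside the KO DP range. The log2 difference was 0.92 ± 0.31 (limma, adjusted p = 0.0685), and 1.26 with an adjusted p of 0.00155 without that library. Cdkn2d was at 59.3, 63.6, 103.2 and 88.5 in KO DP and 92.0, 74.3, 109.7 and 111.7 in WT SP, with overlap, and its log2 difference was -0.32 ± 0.20 (limma, adjusted p = 0.315). The table holds Cdkn2d on 2 lines whose values have a ratio of 0.905 to 1.11 in the 10 libraries. The values here are their sum.

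**Figure D2:**
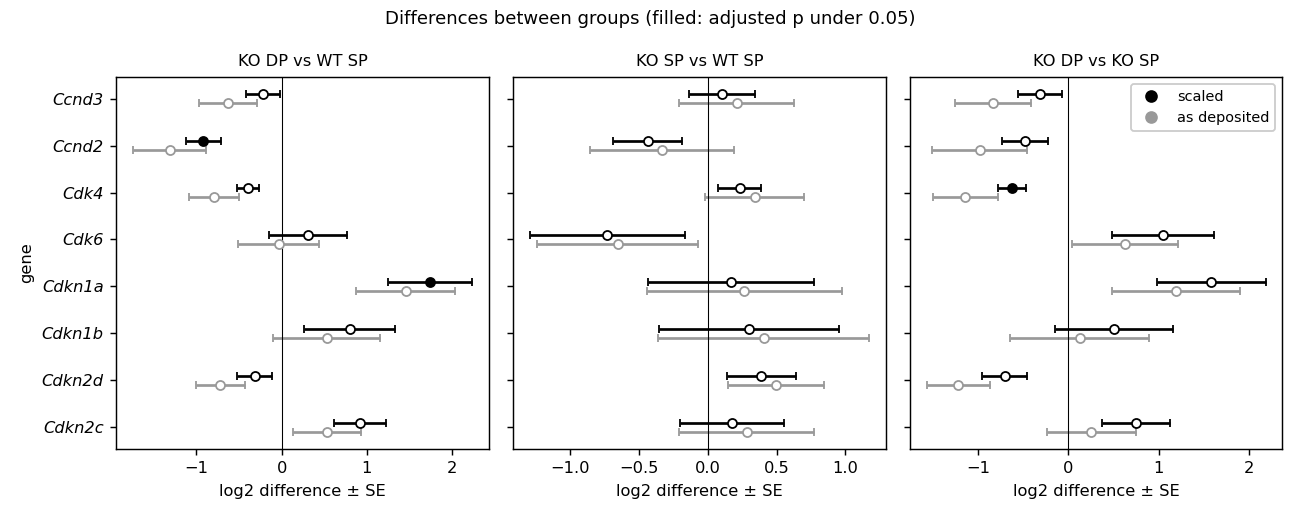
Log2 difference ± SE of the 8 tested genes in the 3 comparisons, from scaled FPKM (black) and FPKM as deposited (grey); filled points have an adjusted p under 0.05 (limma). Ccnd2 and Cdkn1a are filled for KO DP against WT SP and Cdk4 for KO DP against KO SP, on scaled values only.

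Between KO SP and WT SP, both CD4-CD8+, none of the 8 tested members passed (limma); 0.177% of all genes did (20 of 11288), 1477 genes had an unadjusted p under 0.05, and as deposited 0.116% passed. The libraries of 3 members did not overlap between the groups, against 29.3% of all genes in this comparison of 2 with 4 libraries. These were Ccnd2, lower in KO SP with a log2 difference of -0.44 ± 0.25 (limma, adjusted p = 0.459), Cdk4, higher with 0.23 ± 0.16 (0.519), and Cdkn2d, higher with 0.39 ± 0.25 (0.505). The KO SP libraries were at 156.4 and 159.4 for Cdk4 and at 140.7 and 111.8 for Cdkn2d, above the highest WT SP values of 153.0 and 111.7 in each case. For Cdkn1a, at 3.15 and 1.62 in KO SP, the log2 difference from WT SP was 0.17 ± 0.60. With 2 KO SP libraries and this SE, the test does not show that the groups were alike. Cdkn2c stood at 21.4 and 15.2, Cdk6 at 2.82 and 3.59, Cdkn1b at 5.69 and 3.64 and Ccnd3 at 258.8 and 280.7 in KO SP, each overlapping the WT SP libraries.

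Between the 2 knockout groups, which differ in CD4 phenotype, Cdk4 was lower in KO DP, with a log2 difference of -0.62 ± 0.16 (limma, adjusted p = 0.0484). It was the 1 of 8 members that passed, where 5.83% of all genes passed (2.07% as deposited, none of them members). All 4 KO DP libraries lay below both KO SP libraries. The call sits at the threshold: as deposited the difference was -1.14 ± 0.36 with an adjusted p of 0.109, and the call was lost in 8 of the 10 fits without 1 library, with adjusted p values of 0.250 and 0.285 when KO SP replicate 1 or 2 was left out. This comparison shares the KO DP libraries with the first and the KO SP libraries with the second.

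For 6 of the 8 members the libraries of KO DP and KO SP did not overlap, against 40.1% of all genes in this comparison of 4 with 2 libraries, and against 1 of 8 members and 19.6% of all genes between KO DP and WT SP. In KO DP the higher ones were Cdkn1a (log2 difference 1.58 ± 0.60, limma adjusted p = 0.146), Cdk6 (1.04 ± 0.56, 0.277) and Cdkn2c (0.75 ± 0.38, 0.251). The lower ones, beside Cdk4, were Cdkn2d (-0.70 ± 0.25, 0.127) and Ccnd3 (-0.32 ± 0.24, 0.422). Ccnd2 was at -0.48 ± 0.25 (0.262) and Cdkn1b at 0.50 ± 0.65 (0.640), both with overlap. The KO SP libraries carry the title numbers 738 and 739, as do KO DP replicates 3 and 4. Among titles 738 to 741 alone, a restriction chosen after seeing the data, 5 of the 8 members passed, where 20% of all 11212 genes tested did. Ccnd2 (-0.91, limma adjusted p = 0.00856) and Cdk4 (-0.53, 0.0398) were lower in KO DP there, and Cdk6 (1.05, 0.0227), Cdkn1a (1.15, 0.0323) and Cdkn2c (0.79, 0.0448) were higher. Over all libraries, with 2 of KO SP, the SE of a difference was 0.16 to 0.65, so that only large differences could pass.

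**Figure D3:**
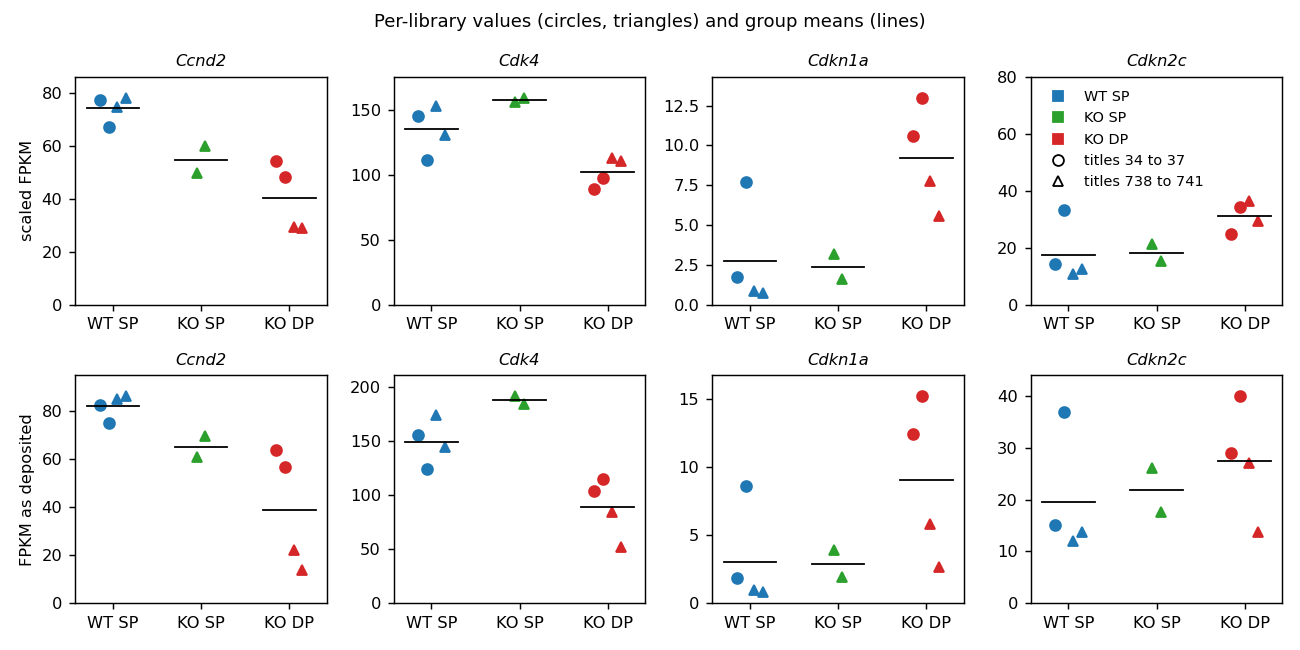
Ccnd2, Cdk4, Cdkn1a and Cdkn2c in each library, as scaled FPKM and as FPKM deposited; lines are group means. As deposited, KO DP replicates 3 and 4 drop well below the other KO DP libraries for Ccnd2 and Cdk4, which widens the spread within KO DP.

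Both title ranges hold 2 KO DP and 2 WT SP libraries, so the KO DP difference could be read within each. Ccnd2 was lower in KO DP in both, by a log2 difference of -0.48 among titles 34 to 37 (limma, adjusted p = 0.0707) and -1.36 among titles 738 to 741 (0.000785). Cdkn1a was higher in both, by 1.39 (0.135) and 2.10 (0.0162), Cdkn2c by 0.41 (0.547) and 1.43 (0.0229), and Cdk4 was at -0.45 and -0.34. Cdk6 (-0.53 and 1.15) and Ccnd3 (0.02 and -0.45) had opposite signs in the 2 ranges, and Cdkn1b (0.96 and 0.64) and Cdkn2d (-0.42 and -0.21) the same sign. The differences between the ranges themselves were tested as an interaction, which no member passed on scaled values (the smallest adjusted p was 0.147, for Ccnd2), where 0.372% of all genes did (42 of 11288, and 1729 at an unadjusted p under 0.05). As deposited, 22.9% of all genes passed that interaction, Ccnd2 (-1.86 ± 0.36, limma adjusted p = 0.0380) and Ccnd3 (-1.48 ± 0.42, adjusted p = 0.0426) among them. KO DP replicates 3 and 4, with the low FPKM sums, are both in the second range.

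Since FPKM is a level per length, members of a family can be put side by side as shares of the family's sum within a library, which no scaling between libraries can move. Of the summed D cyclins, Ccnd2 made up 18.7%, 22.0%, 10.8% and 11.5% in the KO DP libraries, 16.1% to 17.6% in KO SP and 19.4% to 27.4% in WT SP, and nearly all the rest was Ccnd3. The means were 15.8% ± 5.47 (SD, n = 4), 16.8% ± 1.06 (n = 2) and 23.0% ± 4.18 (n = 4). Of the KO DP libraries only replicate 2 reached into the WT SP range. Of Cdk4 and Cdk6 together, Cdk6 made up 5.39% to 8.11% in KO DP, 1.77% to 2.20% in KO SP and 1.99% to 14.9% in WT SP. In every library Cdk4 was the main kinase of the pair by transcript level.

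Cdkn1a was 46.3% to 63.8% of Cdkn1a plus Cdkn1b in KO DP, 30.8% to 35.6% in KO SP and 12.8% to 75.6% in WT SP. The balance between p21 and p27 transcripts thus ran from near even to the side of p21 in KO DP, and was on the side of p27 in KO SP. WT SP was on the side of p27 at 12.8%, 28.2% and 25.7%, except for replicate 2 at 75.6%. Cdkn2c was 24.9% to 34.4% of the Ink4 transcripts in KO DP, 12.0% to 13.2% in KO SP and 8.81% to 30.6% in WT SP. With only 1 of the 2 Cdkn2d lines counted, these ranges were 38.7% to 49.8%, 20.7% to 22.5% and 15.6% to 47.9%, so the size of the share, but not the order of the knockout groups, depends on how those lines are read. No test was run on shares.

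**Figure D4:**
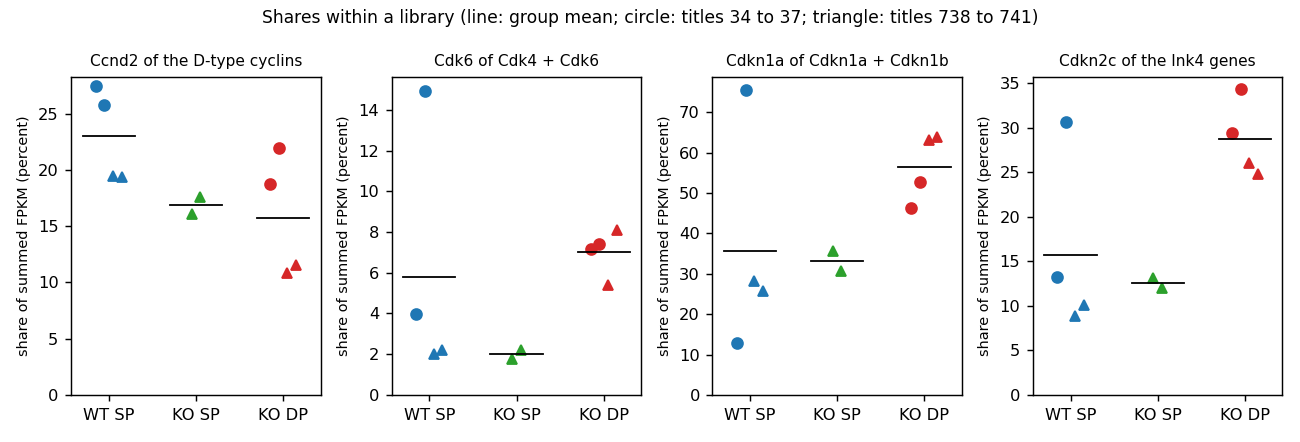
Share of Ccnd2 in the D cyclins, of Cdk6 in Cdk4 plus Cdk6, of Cdkn1a in Cdkn1a plus Cdkn1b and of Cdkn2c in the Ink4 inhibitors, in percent of scaled FPKM, 1 point per library. The Cdk6, Cdkn1a and Cdkn2c shares of the KO DP libraries all lie above those of the KO SP libraries, and the WT SP libraries spread across both.

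Other genes of the pathway were read from lists. Downstream of the kinases, 5 of 13 Rb and E2F genes rose and none fell in KO DP against WT SP (median log2 difference 0.67, against -0.03 over all genes tested, of which 9.15% rose and 8.65% fell). Rbl2, which encodes the p130 pocket protein of resting cells, was at 117, 108, 92.5 and 90.6 scaled FPKM in KO DP and 40.6, 80.9, 33.9 and 31.9 in WT SP, and its log2 difference was 1.21 ± 0.26 (limma, adjusted p = 0.0138). Tfdp2, a dimer partner of E2F, rose by 0.73 ± 0.18 (0.0220) and Rb1, the retinoblastoma protein itself, by 0.67 ± 0.20 (0.0419). As deposited none of the 13 passed. The 5 calls fell to 1 when KO DP replicate 3 or WT SP replicate 3 or 4 was left out, to 2 or 3 without KO DP replicate 2 or 4, a KO SP library or WT SP replicate 1, and went to 8 without WT SP replicate 2. Rbl2 kept its call in all 10 of those fits, Tfdp2 in 7 and Rb1 in 2, and without KO DP replicates 3 and 4 together no gene of the list passed.

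Of the cyclin E, cyclin A and Cdk2 genes, which act after the D cyclins, 3 of 6 tested rose and none fell (median 1.06). The shares over all genes tested were 9.15% and 8.65%. Cdkn3, a phosphatase of Cdk2, rose by 2.26 ± 0.62 (limma, adjusted p = 0.0337), Cdc25a, which activates Cdk2, by 0.48 ± 0.14 (0.0382), and Ccna2, the S phase cyclin, by 2.25 ± 0.65 (0.0410). None of the 3 passed as deposited. Leaving out KO DP replicate 2 or 3, or from WT SP replicate 1, 3 or 4, left no call in the list, and leaving out KO DP replicate 4 or a KO SP library left 1. With replicate number as a block in the fit (the replicate block) none of the 3 passed either (limma, adjusted p 0.0564 to 0.0849). Of 20 mitotic and S phase genes, 14 rose and none fell (median 1.77), and 5 of 20 rose as deposited. The count was 3 if WT SP replicate 3 or 4 was left out, 5 without KO DP replicate 3 or 4, 8 without KO DP replicate 2, 9 without WT SP replicate 1, 0 without KO DP replicates 3 and 4 together, and 8 with the replicate block. Cdc6, which licenses replication origins, was at 5.83, 8.84, 19.4 and 13.6 in KO DP and 2.44, 3.82, 1.94 and 1.85 in WT SP, and its log2 difference was 1.79 ± 0.34 (limma, adjusted p = 0.00824). Rrm2, a subunit of ribonucleotide reductase, rose by 2.32 ± 0.51 (0.0149) and Tyms, thymidylate synthase, by 1.52 ± 0.32 (0.0126). These 3 kept their calls in all 10 fits without 1 library and with the block.

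The summed level of those 20 genes was 792 to 2210 scaled FPKM in KO DP, 611 and 1040 for KO SP, with WT SP at 388 to 839. The lowest KO DP sum, that of replicate 1, lay below the highest WT SP sum, that of replicate 2, and the other 3 KO DP sums lay above all WT SP sums. KO DP replicate 3 had the highest sum, and it and replicate 4 are the libraries with the low FPKM sums. In the comparison of KO DP with KO SP none of the 20 passed over all libraries (median 1.03), and 9 rose among titles 738 to 741 alone, where 20% of all genes passed. In the comparison of KO SP with WT SP no gene of any pathway list passed (limma).

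Upstream of the D cyclins, 4 of 14 tested growth and quiescence regulators fell and 2 rose in KO DP against WT SP (median -0.38). The shares over all genes tested were 8.65% and 9.15%. Myc, the transcription factor that drives growth of activated T cells and acts on Ccnd2 and Cdk4, was at 24.0, 17.6, 11.7 and 16.4 in KO DP, 59.5 and 64.9 in KO SP, while WT SP had 93.9, 50.8, 100.8 and 95.5. All 4 KO DP libraries lay below all others, and the log2 difference of KO DP from WT SP was -2.22 ± 0.25 (limma, adjusted p = 0.000573; as deposited -2.60, 0.00293). Foxp1, a keeper of T cell quiescence, fell by 1.28 ± 0.14 on the log2 scale (0.000546), and Foxo1, which induces Cdkn1b in resting lymphocytes, fell by 0.63 ± 0.14 (0.0154). Myc and Foxp1 passed as deposited, and they and Foxo1 passed in all 10 fits without 1 library. The 6 calls of the list went to 3 without WT SP replicate 1. Against KO SP, Myc (-1.82, limma adjusted p = 0.0118) and Foxp1 (-1.12, 0.00811) were also lower in KO DP, where 5.83% of all genes passed. Both calls were lost when KO SP replicate 1 or 2 was left out (adjusted p 0.0631 to 0.151), and as deposited that of Foxp1 was lost (0.0529).

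In the list of p53 targets and p53 control, which includes Trp53 itself but not other regulators of Cdkn1a such as Myc, 2 of 15 genes rose and 1 fell (median 0.06). The share of all genes tested that passed was 17.8%. As deposited none of the list rose and 1 fell. Gadd45b, a stress-induced gene that other signals also induce, was at 20.9, 28.1, 12.1 and 18.6 in KO DP and 6.89, 6.15, 3.21 and 4.82 in WT SP (log2 difference 1.72 ± 0.26, limma adjusted p = 0.00278). Pmaip1, the Noxa death gene, rose by 1.28 ± 0.34 (0.0295), and Sesn1 fell by 1.71 ± 0.28 (0.00419). Gadd45b and Sesn1 kept their calls in all 10 fits without 1 library and Pmaip1 in 4, and the 3 calls of the list went to 5 without WT SP replicate 2 and to 5 with the replicate block. Trp53 and Mdm2 were at -0.28 ± 0.13 (limma, adjusted p = 0.171) and 0.20 ± 0.11 (0.245) and did not pass.

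Of 14 genes that turn over D cyclins and p27, 1 rose and 2 fell. For this list and those that follow in this paragraph, 17.8% of all genes tested passed, 9.15% higher and 8.65% lower. Skp1a, a core subunit of SCF ubiquitin ligases, fell by 0.73 ± 0.14 on the log2 scale (limma, adjusted p = 0.00878), Fbxw7, the SCF subunit that recognises cyclin E and Myc, fell by 0.61 ± 0.16 (0.0269), and Cks1b, the cofactor with which Skp2 recognises p27, rose by 1.81 ± 0.50 (0.0328). Skp1a kept its call in all 10 fits without 1 library, Fbxw7 in 6 and Cks1b in 4, and Cks1b lost it with the replicate block (adjusted p = 0.0697). Of the 11 tested genes for control of the Ink4 locus, 2 rose and 1 fell: Kdm6a, a histone H3 lysine 27 demethylase, by 0.73 ± 0.15 (limma, adjusted p = 0.0126), Ezh2, the opposing methyltransferase, by 1.06 ± 0.29 (0.0320), and Ring1, a Polycomb ubiquitin ligase, fell by 0.62 ± 0.14 (0.0163). Kdm6a and Ring1 kept their calls in all 10 of those fits and Ezh2 in 4, and Ezh2 lost it with the block (0.0540). Kdm6a lies on the X chromosome and escapes its inactivation, and the sexes cannot be told apart from the genotypes here. Of the 3 genes of the CDK activating kinase, Ccnh fell by 0.41 ± 0.13 (0.0489), and the call was lost in 9 of 10 fits without 1 library and with the block (0.0700). As deposited no gene of these 3 lists passed.

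Markers of other cells were summed as a measure of what else the libraries may hold, beside those of T cells. The 9 T cell markers, Cd4 among them, summed to 4140, 3853, 3463 and 3178 scaled FPKM in KO DP. The sums were 4691 and 4462 in KO SP and 4058 to 4843 in WT SP. Between KO DP and WT SP 1 of the 9 rose and 3 fell, where 9.15% and 8.65% of all genes tested did. As deposited 1 rose and none fell. The 11 myeloid markers in the table summed to 160.0, 114.9, 25.0 and 37.9 scaled FPKM in KO DP, to 30.0 and 16.9 in KO SP, and for WT SP to 60.1, 179.8, 14.3 and 26.1, with none at 0. WT SP replicate 2 had the highest myeloid sum. That library lay inside the KO DP range for Cdkn1a and Cdkn2c, and above every KO DP library for Cdk6. The 8 erythroid markers summed to 439 to 1038 in the 4 libraries of titles 34 to 37 and 1.90 to 47.1 in the other 6, led by Hba-a1 (339 to 732 and 0.280 to 39.0). The 6 dendritic cell markers summed to 4.93 to 12.8 in KO DP, 1.71 and 2.22 in KO SP, with WT SP at 1.42 to 3.05, and 2 of the 3 tested rose in KO DP, Xcr1 by 0.98 (limma, adjusted p = 0.0147) and Zbtb46 by 0.83 (0.0307), neither of which passed as deposited. The 7 B cell markers summed to 15.1 to 92.1 and the 4 NK cell markers to 0.237 to 2.66, with overlapping groups. The 7 stromal and endothelial markers summed to 12.0 to 14.5 in KO DP, 14.4 and 19.6 in KO SP and 14.4 to 22.6 in WT SP. Nearly all of this was Pecam1, an adhesion molecule of endothelium that leukocytes also carry and the 1 gene of the list that was tested. It fell in KO DP against WT SP by 0.59 ± 0.16 on the log2 scale (limma, adjusted p = 0.0318), which held in 3 of 10 fits without 1 library and did not pass as deposited (0.0697). Up to 4 of the 8 erythroid, 4 of the 7 stromal and endothelial, 2 of the 4 NK cell, 1 of the 7 B cell and 1 of the 6 dendritic cell markers were at 0 in a library. The part of these cells in the results for the cell cycle genes was not tested.

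Across the 10 libraries the genes with the pattern most like that of Ccnd2 on the log2 scale were Ppp1r13b (Pearson r 0.993) and Nod1 (0.979), and those most like Cdkn1a were Tigit (0.994) and Gabarapl1 (0.991). Their log2 differences between KO DP and WT SP were -1.31 for Ppp1r13b, -1.57 for Nod1, 3.42 for Tigit and 1.38 for Gabarapl1. The genes were picked for their likeness, over these same libraries, to members called in this comparison. Their differences were therefore close to given in advance and add no evidence. These r values are a description over libraries that share their groups and title ranges.

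H3K9me3 was read from 4 peak lists, 1 per library, in mm9 coordinates with the start site distances and the scores that the authors deposited. The lists held 85960 and 23304 peaks in the wild type and 111149 and 154997 in the knockout, and with 2 libraries a genotype and lists of such unequal length no test was run. The lists assigned 13 and 5 peaks (wild type) and 12 and 20 peaks (knockout) to the 10 members, which gave 7 and 3, and 5 and 7, members with at least 1 peak. Over all 23234 symbols of the RNA table, the share with at least 1 peak was 51.1% and 33% in the wild type and 46.5% and 51.6% in the knockout. Cdk4, Cdkn1b and Cdkn2a had none in any list, and no member had a peak within 1 kb of its start site in any list. The share of all genes with a peak that near was not taken, so this cannot be read as a trait of the members. The nearest peaks lay within 5 kb at Cdk6, Cdkn1a and Cdkn2c. Within 50 kb, 5 and 2 members had a peak in the wild type and 5 and 5 in the knockout. Over all symbols these shares were 46.6% and 26.7%, and 41.5% and 47.1%.

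Peaks found in all 4 lists lay at Ccnd3, Cdkn2d and Cdk6. At Ccnd3 they were in intron 1, at chr17:47652917-47653833 in wild-type replicate 1, 11375 bases after the start site, with scores of 29.8 and 17.4 in the wild type and 15.0 and 7.92 in the knockout. By rank they stood above 86.2% and 48.8% of the scores in the wild-type lists and 79.9% and 31.3% in the knockout lists. Upstream of Cdkn2d, in an intron of another annotated transcript, they lay 8864 to 10523 bases before the start site (chr9:21104066-21104968 in wild-type replicate 1), with scores of 31.4 and 34.7 in the wild type and 9.22 and 23.8 in the knockout. Their ranks were above 87.4% and 84.9% of the wild-type lists and 49.4% and 90.3% of the knockout lists. The peak of knockout replicate 1 overlapped only that of knockout replicate 2. Upstream of Cdk6 a peak about 60 kb before the start site (chr5:3282917-3284359 in wild-type replicate 1) had scores of 59.0 and 50.5 in the wild type and 41.3 and 37.3 in the knockout. By rank the order was the other way, above 96.0% and 92.2% of the wild-type lists and 98.1% and 96.8% of the knockout lists. A more distant region assigned to Cdk6, about 244 kb before the start site (chr5:3098509-3101079 in wild-type replicate 1), also had peaks in all 4 lists. The peaks were annotated to LTR elements in both wild-type lists and in knockout replicate 1, but not in knockout replicate 2. This region held the highest score at any member, 100.1 in wild-type replicate 1 and 56.8 in replicate 2, against 23.3 and 16.5 for 2 peaks in knockout replicate 1 and 7.92 in knockout replicate 2. In the same order, these peaks ranked above 98.7%, 93.6%, 92.1%, 83.1% and 31.3% of their lists. The scaling of the scores is not given in the sources used here, and the median score of the whole lists was 11.9 and 17.4 in the wild type and 9.22 and 9.32 in the knockout, so scores compare only roughly between lists.

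Peaks present in both knockout lists and neither wild-type list lay at Cdkn2c. One was 1691 and 1618 bases before the start site in knockout replicates 1 and 2 (chr4:109340802-109341302 and chr4:109340729-109341229), with scores of 11.7 and 7.92. The other was 45235 and 45306 bases after it, in the same order of replicates, with scores of 18.0 and 21.4. The pair with the lower scores stood above 68.2% and 31.3% of the scores in those lists. At Cdkn1a, peaks lay 2600 bases before the start site in wild-type replicate 1 (chr17:29225017-29225646, score 14.6) and 2094 and 2000 bases before it in the knockout lists (scores 6.80 and 7.46), and knockout replicate 1 had another 10555 bases after it. Cdk6 also had a peak in intron 1, 2610 to 2756 bases after the start site, in 3 of the 4 lists (chr5:3346537-3347308 in wild-type replicate 1). Ccnd2 had 1 peak each in wild-type replicate 1 and knockout replicate 2, 61779 and 61487 bases before its start site. The ChIP cells were stimulated in culture and the RNA cells had expanded in mice, so a peak and an RNA level come from different cells.

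**Figure D5:**
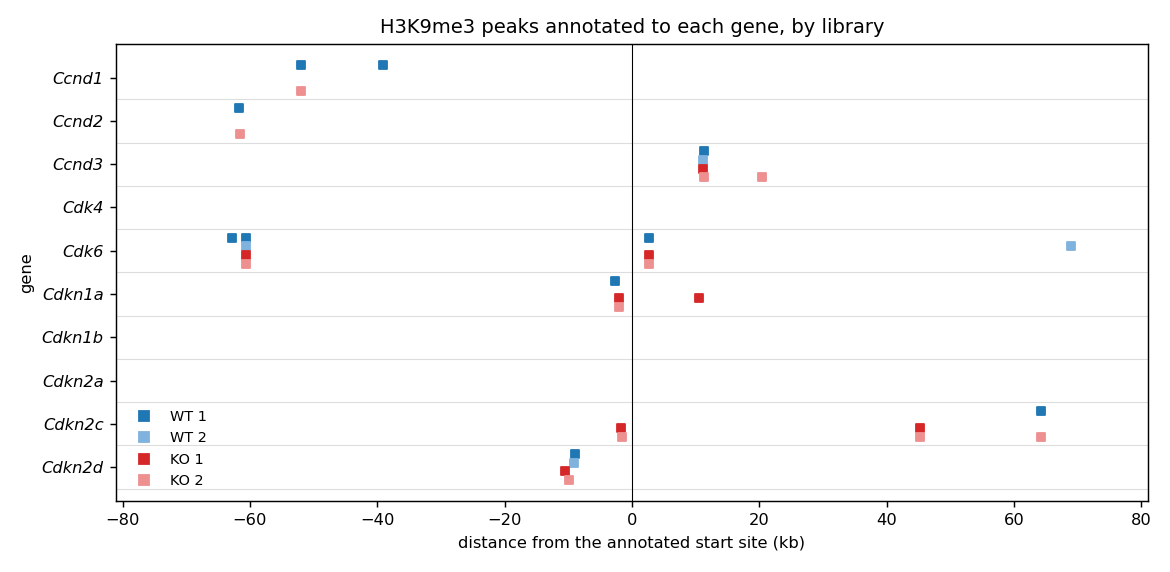
Distance in kb of each H3K9me3 peak assigned to a member from that gene's start site, within 80 kb, in the 4 peak lists. Peaks at Ccnd3, Cdkn2d and Cdk6 recur in all lists, those of Cdkn2c near the start site and near 45 kb are in the 2 knockout lists, and none lies within 1 kb of a start site.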

How the data were processed

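RNA was sequenced in 10 libraries and H3K9me3 ChIP in 4. Per the labels' protocols, at most 5 ng of total RNA was amplified with SMART-Seq v4 and tagmented with Nextera, which does not mark the strand, and the ChIP was native after micrococcal nuclease digestion. The RNA values are FPKM that the authors deposited, and the submitters' processing notes name TopHat and Cufflinks for them, Bowtie and HOMER for the peaks, and mm9 for both. For versions, the annotation and the use of the input libraries, nothing is given in the sources used here. Each peak has a score that the authors deposited, used only to describe peaks, with lengths, distances and annotations per the file headers. Of the RNA table, 16 columns of averages and ratios were not used.

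The 23700 lines of the RNA table held 23234 symbols, and lines that repeat a symbol (250 symbols) were summed. A library's size factor is the median, over genes, of its ratio to the gene's geometric mean over the 10 libraries. Genes with a mean of at least 0.5 scaled FPKM (11288) were tested on log2(scaled FPKM + 1) with limma 3.58.1 in R 4.3.3, with a mean-variance trend, all 3 groups sharing 1 spread, and Benjamini-Hochberg adjustment over all genes tested at a threshold of 0.05. The added 1 understates the change of low genes. The same fit was run on FPKM as deposited, within the title ranges, and with the alternatives of the closing section, among them pseudocounts of 0.1 and 0.5, a filter at 1 or none, other scalings and leaving out each library. The scripts were tested on simulated data. Tables and figures were made with pandas 2.3.3, numpy 2.4.6 and matplotlib 3.10.9 in Python 3.11.15.

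The members and the gene lists were chosen with earlier results of these data known. The text names all 10 members, Ehmt2, Cd4, Cd8a and Cd3e, up to 3 genes per pathway list and comparison by smallest p among called genes, the 2 genes most like each member called between KO DP and WT SP by Pearson r, and the most abundant marker or those apart between title ranges. Trp53, Mdm2, Xist, Ddx3y, Xcr1, Zbtb46 and Pecam1 are outside this rule and were picked with their values in view.

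The descriptions of KO DP and WT SP carry the same replicate numbers, 1 to 4. Same-numbered libraries deviated from their group means together (r = 0.151, 0.302, 0.101 and 0.135, all over 0.1). Differently numbered libraries of the same title range did so too (r = 0.075, 0.182, 0.198 and 0.263). For KO DP replicates 3 and 4 the highest r was with the other number in WT SP. Same-numbered libraries also share a title range, so these values do not show that the numbers pair the samples. A fit with replicate number as a block (the replicate block) was run as an alternative. The replicate block changed no member's call between KO DP and WT SP. Where it ended the call of a named gene or moved a list's count by over 1.5 times, its value stands beside the result.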

Additional observations from a re-analysis of the deposited data

Results flagged for a closer look

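Among 20 groups of 4 libraries examined (10 genes in KO DP and WT SP), 3 held a library far from the other 3 by Dixon's criterion, which chance flags in about 1 of 20 groups. Cdkn1a in WT SP replicate 2 was at 7.67 scaled FPKM, against 0.704 to 1.74 in the other WT SP libraries. Cdkn2c in the same library was at 33.1, against 10.6 to 14.1. Cdkn1b in WT SP replicate 1 was at 11.8, against 2.04 to 2.48. WT SP replicate 2 also had the highest myeloid marker sum of all libraries, 179.8 scaled FPKM. Its part in these values was not tested.

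The KO DP difference from WT SP differed between the title ranges for Ccnd2 and Ccnd3 as deposited, by an interaction test. The log2 difference among titles 738 to 741 minus that among titles 34 to 37 was -1.86 for Ccnd2 (limma, adjusted p = 0.0380) and -1.48 for Ccnd3 (limma, adjusted p = 0.0426). On scaled values these were -0.87 (adjusted p = 0.147) and -0.46 (adjusted p = 0.376) and did not pass. As deposited 2561 genes passed this test and on scaled values 42.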

How the results depend on the processing

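Between KO DP and WT SP, 2 members passed. This count was 0 as deposited and without KO DP replicates 3 and 4 together, 1 with no filter and with only the 2 groups compared, 4 with title range as a covariate, 5 in titles 738 to 741 only (a setting added after seeing the data), and 1 to 5 when 1 library was left out. Between KO SP and WT SP, 0 passed in the main fit and 1 with the replicate block by description number (Cdkn2d, 0.65, adjusted p = 0.0411). Between KO DP and KO SP, 1 passed; this was 0 as deposited, scaled to a common total or upper quartile, with a pseudocount of 0.1, with no filter, with the title range covariate and with no trend, 3 with only 2 groups, 3 with the replicate block by description number, 6 with a replicate block by title number, 5 in titles 738 to 741 only and 0 to 4 without 1 library. Libraries of KO SP share only numbers with the other groups: same-numbered deviations correlated at -0.027 and 0.099 with KO DP and -0.031 and -0.11 with WT SP by description number, and at 0.15 and 0.029 with KO DP by title number. With the block by title number 14 of the 20 mitotic and S phase genes rose in KO DP against KO SP. In that fit, on titles 738 and 739 only, 18.8% of all 11361 genes tested passed (852 higher and 1279 lower), beside the 6 members. Members passing the interaction with title range went from 0 to 2 as deposited and 0 to 1 without 1 library. Peaks assigned to members went from 13, 5, 12 and 20 to 5, 2, 7 and 7 within 50 kb of a start site, and in wild-type replicate 1 and knockout replicate 2 to 8 and 9 at or above the list's median score.

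Signs turned only in differences that did not pass. As deposited Cdk6 was at -0.034 between KO DP and WT SP. Between KO SP and WT SP, the block by description number gave Cdkn1a -0.39 and Cdkn1b -0.34. Ccnd3 was at -0.12 with the range covariate, -0.24 in titles 738 to 741, where Cdk6 was at 0.059, and -0.025 (without WT SP replicate 2) to 0.23 when 1 library was left out. When 1 library was left out, Cdkn1a ranged from -0.16 to 0.69 (below 0 without KO SP replicate 1 or WT SP replicate 3 or 4), and Cdkn2c from -0.055 (without KO SP replicate 1) to 0.51. Between KO DP and KO SP, Cdkn1b was at -0.31 with the title number block, -0.14 with the range covariate and -0.24 in titles 738 to 741.

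Over all genes, 2009 passed between KO DP and WT SP, against 881 as deposited, 3113 with the range covariate, 835 without KO DP replicates 3 and 4, 3637 in titles 738 to 741 and 1127 to 2751 without 1 library. Higher and lower calls were 1033 and 976 in the main fit, 319 and 562 as deposited, 1187 and 670 with a common total and 1151 and 815 with a common upper quartile. Between KO DP and KO SP 658 passed (272 higher and 386 lower), against 231 as deposited (47 and 184), 495 with a common total (286 and 209), 545 with a common upper quartile (301 and 244), 370 with no filter, 1051 with 2 groups, 2618 and 2131 with the replicate blocks, 2242 in titles 738 to 741 and 54 to 1315 without 1 library. Between KO SP and WT SP 20 passed, against 13, 10 with 2 groups, 1383 with the block by description number, 75 in titles 738 to 741 and 11 to 30 without 1 library. Read depth is unknown and sets no limit here that could be given.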
